A study of Mus musculus with 20 samples.

Results

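In the mouse hippocampus, 9 genes of sulfur amino acid metabolism were examined. The genes were chosen by name for their enzymatic steps, with earlier results of these data known. They are Mat2a, Ahcy and Mtr of the methionine cycle, Cbs and Cth of transsulfuration, Gclc and Gclm of glutathione synthesis, and Cdo1 and Csad of the route from cysteine to taurine. The deposited tables list 57126 genes, and all 9 members passed the filter on low counts that left 18648 genes for testing. Poly(A) RNA of 20 hippocampi was sequenced, with 5 libraries in each of 4 groups. Knockin mice given dexamethasone, knockin mice given PBS, wild-type mice given dexamethasone and wild-type mice given PBS formed the groups. All mice were C57BL/6 males whose adrenal glands had been removed at about 2.5 months of age, so the PBS groups also lacked their own adrenal glucocorticoid. At 2 weeks after surgery each mouse was injected intraperitoneally with dexamethasone (1 mg per kg), a synthetic glucocorticoid, or with its vehicle, phosphate-buffered saline (PBS), and the tissue was taken 6 h later. The knockin mice were homozygous for an Nr3c1 allele with a replaced exon 2, which keeps the start codon of the full-length glucocorticoid receptor form GRA and carries ATC in place of the start codons of GRB, the GRC forms and the GRD forms. The labels name no Cre line or tissue-specific promoter for this allele, and the wild-type mice had the unmodified gene.

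In the methionine cycle, methionine is activated to S-adenosylmethionine, the methyl donor of most methylation reactions, and the homocysteine left after methyl transfer is either methylated back to methionine or drained into transsulfuration. Transsulfuration turns homocysteine into cystathionine and then cysteine, and cysteine is the limiting amino acid for glutathione and the source of taurine and sulfate. In the brain Cbs is known mainly from astrocytes, whereas liver expresses much of the whole route at high levels.

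The promoter windows of Cbs and Mat2a, which were called higher with dexamethasone in both genotypes, and of Gclm, a glutathione gene that was not called, are shown because the results turn on which members moved. Each runs from 250 bases before to 50 bases after the annotated start, on the gene's own strand, from RefSeq on GRCm38.p6. Capitals mark matches to the motifs that were searched on both strands.

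Cbs, chr17:31637156-31637455, minus strand: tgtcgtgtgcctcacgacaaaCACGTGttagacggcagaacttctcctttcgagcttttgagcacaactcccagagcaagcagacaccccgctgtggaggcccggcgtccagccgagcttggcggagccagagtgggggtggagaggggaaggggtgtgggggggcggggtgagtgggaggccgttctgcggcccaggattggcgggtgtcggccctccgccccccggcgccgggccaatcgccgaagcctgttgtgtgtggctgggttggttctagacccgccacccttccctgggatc

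Mat2a, chr6:72439507-72439806, minus strand: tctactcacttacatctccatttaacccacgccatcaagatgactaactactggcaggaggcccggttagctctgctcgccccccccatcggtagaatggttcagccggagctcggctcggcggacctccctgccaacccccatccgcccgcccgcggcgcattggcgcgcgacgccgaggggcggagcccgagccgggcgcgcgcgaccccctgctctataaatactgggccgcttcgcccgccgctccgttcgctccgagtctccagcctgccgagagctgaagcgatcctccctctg

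Gclm, chr3:122245307-122245606, plus strand: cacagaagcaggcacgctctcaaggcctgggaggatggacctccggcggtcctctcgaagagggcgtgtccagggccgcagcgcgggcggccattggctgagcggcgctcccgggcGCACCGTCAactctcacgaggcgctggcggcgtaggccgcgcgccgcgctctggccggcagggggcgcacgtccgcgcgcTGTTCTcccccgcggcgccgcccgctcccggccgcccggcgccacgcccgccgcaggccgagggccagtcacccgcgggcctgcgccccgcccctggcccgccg

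The search covered 7 windows of 6 of the 9 members. Windows on chromosome 18, where Cdo1 lies, were left out, and the RefSeq table held no entry for Cth and Gclc. The Cbs window held 1 E-box (CACGTG) at position -229 from the annotated start, a motif in 7.15% of 32851 windows of the same length. The Gclm window held a single, unpaired part of the glucocorticoid receptor element at position -54, and not the full paired element. This part (AGAACA, read here on the other strand as TGTTCT) was found in 19.0% of all windows. The Gclm window also held an antioxidant response element (TGACNNNGC, read here as GCACCGTCA) at position -134, found in 12.4%. The Mat2a window matched none of the motifs, which also took in the cyclic AMP element TGACGTCA (1.79% of windows), the C/EBP-ATF element TGATGNAA (3.95%) and the paired receptor element, AGAACA and TGTTCT spaced 3 bases apart (0.00913%). No match fell in the windows of Ahcy, Mtr and Csad. These matches describe letters in a short window and are no measure of binding.

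The libraries held 11493014 to 48267708 read pairs assigned to genes. Levels are given as CPM, the counts of a gene relative to the size of its library, with library sizes scaled by edgeR's TMM method, and n is 5 mice per group. A gene was called when its p, from edgeR's quasi-likelihood test with Benjamini-Hochberg adjustment over all genes tested, was below 0.05. Nr3c1 averaged 111.5 ± 8.69 CPM in knockin dexamethasone, 162.8 ± 24.1 CPM in knockin PBS, 98.6 ± 8.27 CPM in wild-type dexamethasone and 135.6 ± 21.8 CPM in wild-type PBS (SD). It was called lower with dexamethasone in knockin (log2 fold change -0.55, adjusted p = 0.00227) and wild-type mice (-0.46, adjusted p = 0.0112). Between knockin and wild-type mice it was not called, at 0.18 (95% interval -0.06 to 0.41) under dexamethasone and 0.26 (0.04 to 0.49) under PBS. Gene counts do not show the changed start codons, so they are no check of the genotype labels. Hippocampal neuron markers summed to 3632.3 to 4081.9 CPM in the 20 libraries. Their list includes the general neuron genes Snap25 and Rbfox3, so the sum does not tell hippocampus from other neuronal tissue. Liver transcripts stood out in wild-type PBS replicates 1 and 2, where 16 markers summed to 256.5 and 153.1 CPM, against 5.00 to 64.7 CPM elsewhere, and up to 2 of the 16 were at 0 in 4 other libraries. Choroid plexus transcripts stood out in knockin dexamethasone replicate 2 and wild-type PBS replicate 4, where 14 markers summed to 1471.9 and 1888.1 CPM, against 43.1 to 633.9 CPM elsewhere. In wild-type dexamethasone replicate 3 the oligodendrocyte markers had the lowest sum, 3813.9 CPM, against 4793.7 to 6632.7 CPM elsewhere. Its sum of meningeal and fibroblast markers was the highest, 243.7 CPM, against 80.2 to 180.1 CPM elsewhere.

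With dexamethasone 3 of the 9 members rose in knockin mice, Cbs, Cth and Mat2a, and 2 in wild-type mice, Cbs and Mat2a. Csad joined them when the response was averaged over both genotypes. Both glutathione genes, Ahcy, Mtr and Cdo1 were not called in any of these comparisons, and no member was called lower. In knockin mice 5.28% of all genes tested were called higher and 4.71% lower. In wild-type mice the shares were 5.27% and 3.94%, and for the average of both genotypes 9.79% and 8.41%. The median log2 fold change of the 9 members was 0.06 in knockin and 0.09 in wild-type mice, against 0.00 and -0.00 over all genes. In knockin mice 4 members had dexamethasone and PBS libraries that did not overlap, against 8.68% of all genes, and in wild-type mice 2 did, against 8.22%. These are levels of RNA in bulk tissue, in which a change in the number of cells of a type and a change in RNA per cell cannot be told apart.

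**Figure D1:**
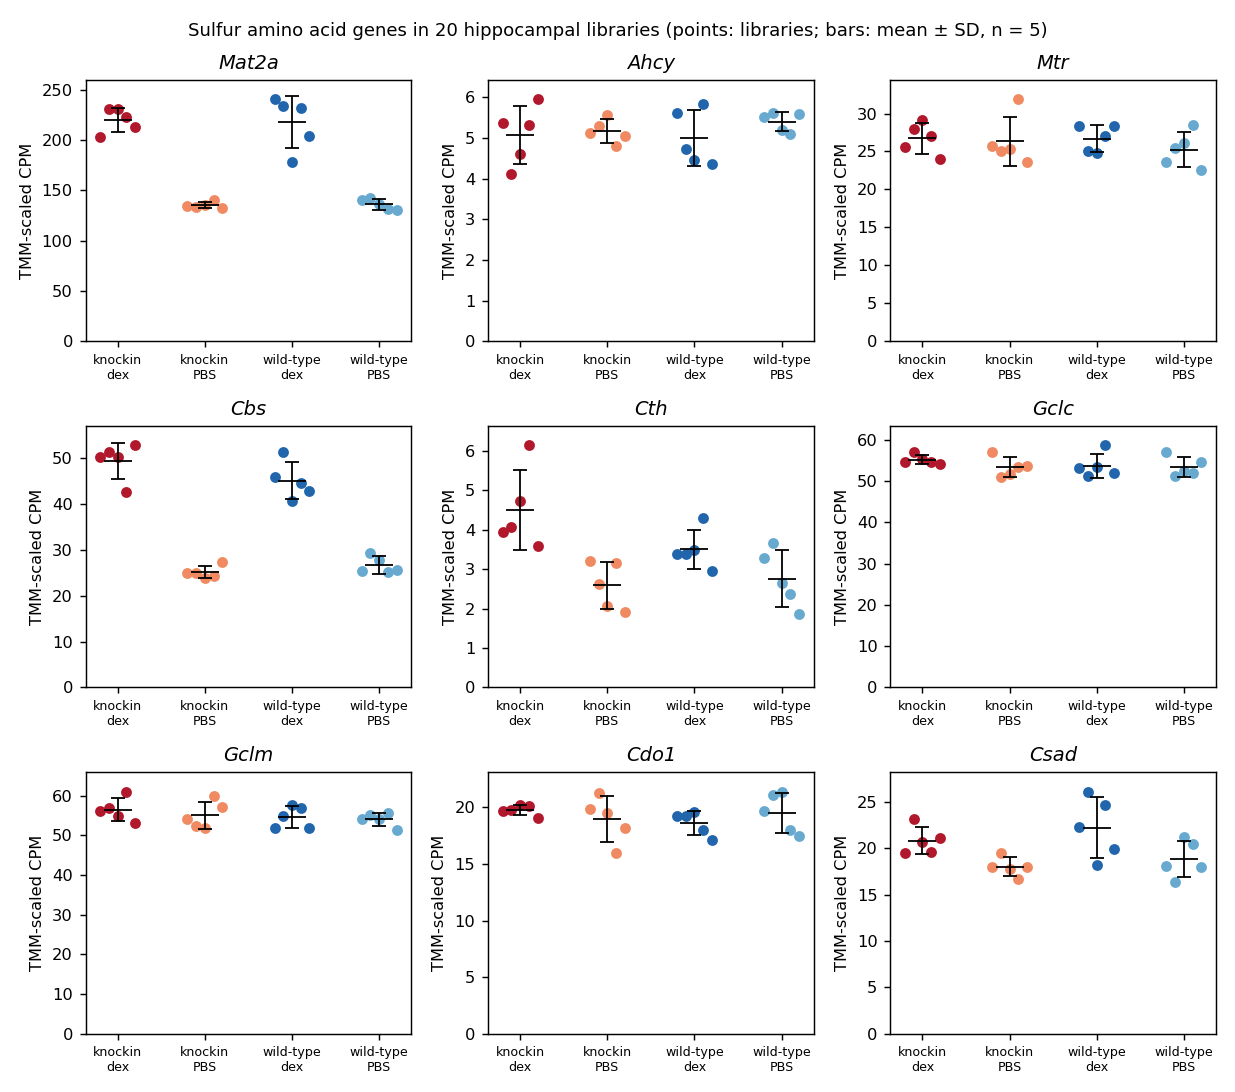
TMM-scaled CPM of the 9 genes (y axes, linear from 0) in the 20 libraries (points), by group, with bars for the mean ± SD (n = 5). Mat2a and Cbs lie higher in every dexamethasone library than in any PBS library of either genotype, and the Gclc and Gclm groups overlap throughout.

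Genes were compared per kilobase of counted gene length, which takes in all annotated exons and can differ from the length of the expressed transcript. On this scale Mat2a had by far the highest level, a mean of 52.3 CPM per kb over all libraries, at the 94.3 percentile of genes tested. It was followed by Gclc at 15.7, Cdo1 at 12.1, Gclm at 9.84, Csad at 8.76 and Cbs at 5.84 CPM per kb. The lowest were Mtr at 3.16, Ahcy at 2.03 and Cth at 1.84 CPM per kb, with Cth at the 33.0 percentile. The place of Ahcy is uncertain, because its counts leave out reads shared with near-identical copies, with which its level in CPM is several times higher. Neighbours in this order such as Ahcy and Cth, or Gclm and Csad, overlapped in the values of their libraries.

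Mat2a encodes the catalytic subunit of the methionine adenosyltransferase found outside adult liver, which makes S-adenosylmethionine. The gene (ENSMUSG00000053907.11) lies on chr6:72409782-72416541 of mm39, minus strand. Its level was 202.7, 230.2, 230.7, 222.9 and 213.2 CPM in knockin dexamethasone libraries, against 134.8, 133.4, 134.9, 140.3 and 132.5 CPM in knockin PBS libraries. Among wild-type mice it was 240.5, 233.2, 178.2, 231.9 and 204.2 CPM with dexamethasone, against 140.2, 142.6, 136.5, 131.6 and 129.9 CPM with PBS. Every dexamethasone library was above every PBS library, and the lowest of them was wild-type dexamethasone replicate 3. The log2 fold change was 0.70 ± 0.06 in knockin mice (SE, 1.63-fold, adjusted p = 1.05e-08) and 0.67 ± 0.06 in wild-type mice (1.60-fold, adjusted p = 2.91e-08). The coefficient of variation was 5.44% in knockin dexamethasone and 2.25% in knockin PBS libraries, and 11.9% in wild-type dexamethasone and 3.98% in wild-type PBS libraries. Exons of the antisense gene Particl overlap Mat2a. Counting ignored strand, so reads in the shared stretch could not be assigned by strand, and their part in the value was not tested. A processed pseudogene, Gm9523, is 95.6% identical over 1164 bases, and with its counts added the log2 fold changes were 0.70 in knockin and 0.68 in wild-type mice.

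Ahcy encodes the hydrolase that splits S-adenosylhomocysteine, the product of methyl transfer, into homocysteine and adenosine. Its level was 5.08 ± 0.715 CPM in knockin dexamethasone and 5.17 ± 0.287 CPM in knockin PBS libraries, and 5.01 ± 0.681 CPM in wild-type dexamethasone and 5.41 ± 0.236 CPM in wild-type PBS libraries (SD, n = 5 each). The groups overlapped in both genotypes. The log2 fold change was -0.02 (95% interval -0.22 to 0.19, adjusted p = 0.995) in knockin mice and -0.12 (-0.33 to 0.08, adjusted p = 0.566) in wild-type mice. These values are uncertain, because counting left out read pairs that map to more than 1 place and the gene has near-identical copies. Gm4737 is 99.7% identical over 2083 bases and held 3648 counts over all libraries, more than the 2431 counts of Ahcy itself, and Gm9826 is 99.2% identical over 1299 bases and held 708. Summed with its copies, Ahcy had 14.2 ± 1.25 CPM in knockin dexamethasone, 14.0 ± 0.784 CPM in knockin PBS, 14.6 ± 1.03 CPM in wild-type dexamethasone and 15.0 ± 0.625 CPM in wild-type PBS libraries. The log2 fold changes of the sum were 0.01 (adjusted p = 0.957) in knockin and -0.05 (adjusted p = 0.774) in wild-type mice.

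Mtr encodes methionine synthase, which uses a folate-bound methyl group and vitamin B12 to turn homocysteine back into methionine. It had 26.7 ± 1.96 CPM in knockin dexamethasone and 26.3 ± 3.21 CPM in knockin PBS libraries. In the wild-type libraries it had 26.7 ± 1.72 CPM with dexamethasone and 25.2 ± 2.30 CPM with PBS. The highest of all 20 values, 31.9 CPM, was knockin PBS replicate 4. The log2 fold change was 0.01 (95% interval -0.14 to 0.16) in knockin and 0.09 (-0.06 to 0.24) in wild-type mice, with adjusted p of 0.958 and 0.571.

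Cbs encodes cystathionine beta-synthase, which joins homocysteine to serine and commits it to transsulfuration. The gene (ENSMUSG00000024039.16) lies on chr17:31827868-31856212 of mm39, minus strand. Its level was 50.2, 51.4, 50.2, 42.7 and 52.8 CPM in knockin dexamethasone libraries, against 25.0, 25.0, 23.9, 24.3 and 27.3 CPM in knockin PBS libraries. In wild-type mice it was 45.9, 51.4, 40.7, 44.6 and 42.8 CPM with dexamethasone, against 25.5, 29.4, 27.9, 25.1 and 25.6 CPM with PBS. No dexamethasone library of either genotype overlapped a PBS library, and the gap between 40.7 and 29.4 CPM was wider than the range of either PBS group. Cbs rose by a log2 fold change of 0.98 ± 0.06 in knockin mice (SE, 1.97-fold, adjusted p = 2.19e-11) and 0.75 ± 0.06 in wild-type mice (1.68-fold, adjusted p = 3.52e-09). Averaged over both genotypes the rise was 1.82-fold (log2 0.86, 95% interval 0.77 to 0.95, adjusted p = 8.28e-14).

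Cth encodes cystathionine gamma-lyase, which releases cysteine from cystathionine and can also form hydrogen sulfide. It rested on 22 to 188 counts per library, the fewest of any member. Its level was 3.94, 4.08, 4.73, 6.14 and 3.59 CPM in knockin dexamethasone libraries, against 3.20, 2.63, 2.07, 3.16 and 1.92 CPM in knockin PBS libraries. The groups did not overlap, though only 3.59 and 3.20 CPM separated them, and replicate 4 was the highest dexamethasone library. The log2 fold change was 0.75 ± 0.18 (SE, 1.68-fold, 95% interval 0.39 to 1.11, adjusted p = 0.00447). In wild-type mice Cth had 3.39, 3.39, 3.48, 4.30 and 2.96 CPM with dexamethasone, against 3.28, 3.67, 2.64, 2.36 and 1.86 CPM with PBS, and the groups overlapped. The log2 fold change there was 0.33 ± 0.18 (95% interval -0.04 to 0.70, adjusted p = 0.324). The 2 highest wild-type PBS values, 3.28 and 3.67 CPM, were replicates 1 and 2, the libraries with the highest sums of liver markers. Without both, the wild-type log2 fold change was 0.60 with an adjusted p of 0.0522, and the part of liver transcripts in the value was not tested further. Averaged over both genotypes Cth was called higher, with a log2 fold change of 0.54 ± 0.13 (adjusted p = 0.00256).

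Per kilobase, Cbs stood above Cth in every library. The median ratio was 3.65 (range 2.01 to 4.25) in knockin dexamethasone and 2.75 (2.23 to 4.13) in knockin PBS libraries. Among wild-type mice it was 3.92 (3.01 to 4.39) with dexamethasone and 3.06 (2.26 to 4.00) with PBS, so that the ranges overlapped in both genotypes.

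**Figure D2:**
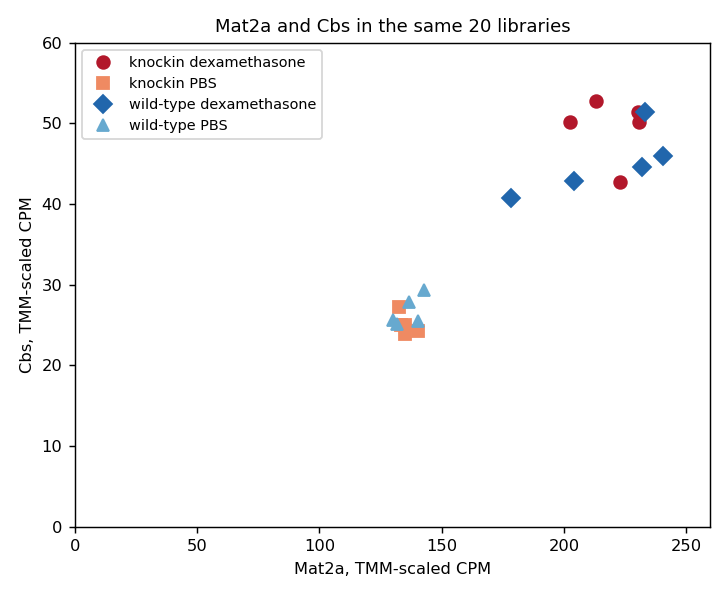
TMM-scaled CPM of Mat2a (x axis) and Cbs (y axis) in the 20 libraries, with 1 point per library and a symbol for each group. The PBS libraries of both genotypes lie together at 129.9 to 142.6 CPM of Mat2a, and the dexamethasone libraries are spread from 178.2 to 240.5 CPM.

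Mat2a and Cbs rose together as groups, and the plot of one against the other shows 2 separate clouds of libraries. As deviations from the group means over the 20 libraries, their log2 CPM correlated with r = 0.42, those of Mat2a and Csad with r = 0.52 and those of Cbs and Csad with r = 0.43. Cbs and Cth, the 2 steps of transsulfuration, had r = -0.17 on the same scale, and Cth and Gclm had r = 0.53. These values describe libraries that share depth and dissection, and they carry no test.

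Gclc and Gclm encode the catalytic and the modifier subunit of glutamate-cysteine ligase, the rate-limiting enzyme of glutathione synthesis. Gclc had 54.5, 56.9, 55.4, 54.5 and 54.2 CPM in knockin dexamethasone libraries, against 57.1, 50.9, 51.7, 53.3 and 53.7 CPM in knockin PBS libraries. In the wild-type libraries it had 53.6 ± 2.90 CPM with dexamethasone and 53.4 ± 2.34 CPM with PBS (SD). Gclm had 56.1, 56.9, 54.9, 61.0 and 53.2 CPM in knockin dexamethasone libraries, against 54.2, 52.3, 51.9, 59.9 and 57.1 CPM in knockin PBS libraries. In wild-type mice it had 54.6 ± 2.69 CPM with dexamethasone and 54.0 ± 1.68 CPM with PBS. The groups of both genes overlapped in both genotypes.

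The intervals of these differences were the narrowest of the 9 genes. For Gclc the log2 fold change was 0.05 (95% interval -0.04 to 0.13, adjusted p = 0.598) in knockin and 0.00 (-0.08 to 0.09, adjusted p = 0.974) in wild-type mice. For Gclm it was 0.04 (-0.06 to 0.13, adjusted p = 0.722) in knockin and 0.02 (-0.08 to 0.11, adjusted p = 0.897) in wild-type mice. The upper bounds lie far under the responses of Cbs and Mat2a. The ratio of Gclc to Gclm per kilobase had medians of 1.63 in knockin dexamethasone, 1.59 in knockin PBS, 1.63 in wild-type dexamethasone and 1.58 in wild-type PBS libraries.

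Cdo1 and Csad encode the dioxygenase that turns cysteine into cysteine sulfinate and the decarboxylase that turns cysteine sulfinate into hypotaurine, the precursor of taurine. Csad had 19.5, 23.1, 20.7, 19.6 and 21.1 CPM in knockin dexamethasone libraries, against 18.0, 19.5, 17.8, 16.7 and 18.0 CPM in knockin PBS libraries. Among wild-type mice it had 22.3, 26.1, 18.2, 24.6 and 19.9 CPM with dexamethasone, against 18.1, 16.4, 21.2, 20.5 and 18.0 CPM with PBS. The knockin groups touched at 19.5 CPM without overlapping beyond rounding, and the wild-type groups overlapped. The log2 fold change was 0.20 ± 0.08 in knockin mice (SE, 95% interval 0.03 to 0.38, adjusted p = 0.140) and 0.23 ± 0.08 in wild-type mice (0.06 to 0.40, adjusted p = 0.0959), and neither was called. Averaged over both genotypes Csad was called higher, by 0.22 ± 0.06 (1.16-fold, adjusted p = 0.00991). Without wild-type PBS replicates 1 and 2, the libraries with the most liver transcripts, the average was 0.17 and its adjusted p 0.0556. Without wild-type dexamethasone replicate 3, the lowest wild-type dexamethasone library, the wild-type value was 0.30 with an adjusted p of 0.0140. Leaving out each library in turn gave wild-type values of 0.16 to 0.30, with adjusted p of 0.0140 to 0.283, and knockin values of 0.16 to 0.24.

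Cdo1 showed no such difference. It had 19.8 ± 0.458 CPM in knockin dexamethasone and 19.0 ± 1.99 CPM in knockin PBS libraries, and 18.6 ± 1.04 CPM in wild-type dexamethasone and 19.6 ± 1.75 CPM in wild-type PBS libraries (SD, n = 5 each). The log2 fold changes were 0.06 (95% interval -0.08 to 0.20, adjusted p = 0.716) in knockin and -0.07 (-0.21 to 0.07, adjusted p = 0.631) in wild-type mice. Cdo1 is the only member on the chromosome of Nr3c1, 7.22 Mb from it. Between knockin and wild-type mice its log2 fold change was 0.08 (-0.06 to 0.22) under dexamethasone and -0.05 (-0.19 to 0.09) under PBS.

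**Figure D3:**
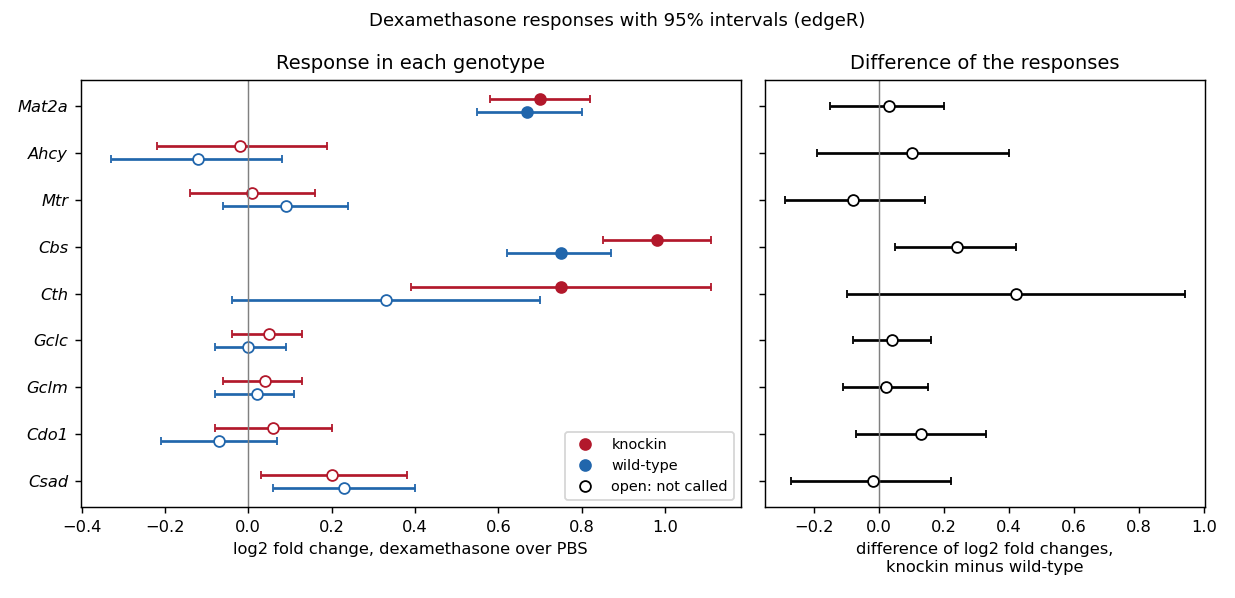
Left, log2 fold change of dexamethasone over PBS (x axis) with its 95% interval for each gene in knockin and wild-type mice, with filled symbols for called values. Right, the difference of the 2 responses, knockin minus wild-type, with its 95% interval; the interval of Cbs, 0.05 to 0.42, is the one that leaves out 0, and none was called after adjustment.

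Knockin and wild-type mice were compared under each treatment, a comparison that asks whether the shorter receptor forms matter for the level or the response of a gene. No member was called between the genotypes by edgeR, and none was called by DESeq2 or limma-voom. Under dexamethasone the unadjusted edgeR p was 0.0329 for Cbs and 0.0386 for Cth, and neither passed the adjustment over all genes. Under PBS, and averaged over treatments, no member had an unadjusted p under 0.05. The share of all genes at this unadjusted level was not taken, so these values are description only. All genotype groups of all 9 members overlapped. Over all genes tested 0.00% were called under dexamethasone, 0.00% under PBS and 0.00% averaged over treatments. The shares of genes whose groups did not overlap were 0.788% under dexamethasone and 0.670% under PBS.

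The response of Cbs was larger in knockin mice by 0.24 ± 0.09 on the log2 scale (SE, 95% interval 0.05 to 0.42, unadjusted p = 0.0131, adjusted p = 1.00), and so it did not pass the threshold over all genes, of which 0.00% were called. Under dexamethasone Cbs averaged 49.4 ± 3.94 CPM in knockin and 45.1 ± 4.04 CPM in wild-type libraries, and under PBS 25.1 ± 1.34 CPM in knockin and 26.7 ± 1.86 CPM in wild-type libraries (SD). For Cth the difference of responses was 0.42 ± 0.25 (95% interval -0.10 to 0.94, adjusted p = 1.00), which is too wide to tell a large difference from none. For Mat2a it was 0.03 ± 0.08 (-0.15 to 0.20, adjusted p = 1.00), a range that ends well below the response itself. The differences of the other members ran from -0.08 for Mtr to 0.13 for Cdo1, and their intervals all included 0. Calls of Cth in knockin and not in wild-type mice are therefore not a shown difference between the genotypes.

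The wider network was described with 9 lists of 108 further genes for methyl transfer, folate, sulfur oxidation, taurine, glutathione, transport, redox and amino acid stress. The lists too were chosen with earlier results of these data known, so their shares of calls are description only. Of the 108 genes 102 were tested. In knockin mice 13 were called higher and 8 lower, 20.6% of those tested. In wild-type mice 9 were called higher and 7 lower, 15.7%. Averaged over both genotypes 19 were called higher and 12 lower, 30.4%, against 9.79% higher and 8.41% lower over all genes. Over all genes tested the shares, given above, were 5.28% higher and 4.71% lower in knockin mice and 5.27% higher and 3.94% lower in wild-type mice, and the counts of each list below are to be read beside them. The median log2 fold changes of the 102 genes were 0.02 in knockin and 0.00 in wild-type mice. Between genotypes, under dexamethasone, PBS or averaged, and for the difference of responses, edgeR called 0 of them, with 4, 2, 5 and 2 at an unadjusted p under 0.05. The share of all genes at that unadjusted level was not taken, so these counts show no genotype effect.

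In the folate cycle, which supplies the methyl group that Mtr uses, 2 of 12 genes rose in each genotype. Mthfd2, a mitochondrial enzyme of one-carbon metabolism, had 9.44, 16.9, 15.9, 11.3 and 9.01 CPM in knockin dexamethasone libraries, against 5.66, 5.54, 5.89, 7.69 and 5.75 CPM in knockin PBS libraries. In the wild-type libraries it had 22.4, 19.9, 7.62, 16.9 and 11.2 CPM with dexamethasone, against 6.12, 6.09, 6.00, 5.86 and 6.68 CPM with PBS. The groups did not overlap in either genotype, and the dexamethasone libraries spread over a wide range, with wild-type replicate 3 again the lowest. Its log2 fold change was 1.01 in knockin (adjusted p = 0.0204) and 1.32 in wild-type mice (adjusted p = 0.00272). The knockin call was lost without any 1 of knockin PBS replicates 1, 2 or 3 or knockin dexamethasone replicates 2 or 3, with an adjusted p of up to 0.0603, and also without the 2 libraries high in choroid plexus transcripts (adjusted p = 0.0742) and under limma-voom (adjusted p = 0.0732). Aldh1l1, which oxidises formyl-folate and is widely used as an astrocyte marker, had 77.5 ± 8.96 CPM in knockin dexamethasone and 51.6 ± 2.87 CPM in knockin PBS libraries, and 75.7 ± 7.50 CPM in wild-type dexamethasone and 51.8 ± 2.40 CPM in wild-type PBS libraries. Its log2 fold changes were 0.58 (adjusted p = 4.91e-06) and 0.54 (adjusted p = 1.68e-05) in knockin and wild-type mice.

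Among 12 tested genes of methyl transfer around Mat2a, Ahcy and Mtr, Mmachc, which processes vitamin B12, was called higher in knockin mice by 0.21 (adjusted p = 0.0114), and none was called in wild-type mice. Averaged over both genotypes 3 were called higher. Besides Mmachc, whose averaged call was lost without a filter on low counts (adjusted p = 0.106), they were Ahcyl2, a relative of Ahcy, by 0.36 (adjusted p = 0.0106), and Mtrr, the reductase that keeps Mtr active, by 0.28 (adjusted p = 0.0111). Bhmt and Bhmt2, which remethylate homocysteine from betaine in liver, did not pass the filter on low counts.

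Genes of the list of sulfide and sulfur oxidation, which also takes in sulfurtransferases and transaminases, were called in both directions. Suox, sulfite oxidase, the last step from cysteine to sulfate, had 15.3, 20.4, 21.1, 21.5 and 13.4 CPM in knockin dexamethasone libraries, against 10.7, 9.88, 10.2, 11.0 and 10.9 CPM in knockin PBS libraries. In wild-type mice it had 24.5, 22.7, 12.9, 20.0 and 16.4 CPM with dexamethasone, against 9.35, 10.7, 9.24, 9.67 and 10.1 CPM with PBS. All dexamethasone libraries lay above all PBS libraries, and the log2 fold changes were 0.80 in knockin (adjusted p = 0.00177) and 0.97 in wild-type mice (adjusted p = 0.000326). Tst, thiosulfate sulfurtransferase of mitochondria, which takes part in sulfide disposal, had 16.6, 15.5, 14.3, 17.1 and 14.4 CPM in knockin dexamethasone libraries, against 27.5, 26.4, 30.8, 24.1 and 27.0 CPM in knockin PBS libraries. Among wild-type mice it had 17.9, 15.3, 16.2, 14.8 and 15.5 CPM with dexamethasone, against 23.7, 24.5, 29.6, 27.5 and 28.3 CPM with PBS. The treatments did not overlap, and Tst fell by 0.79 on the log2 scale in knockin (adjusted p = 1.13e-08) and by 0.74 in wild-type mice (adjusted p = 6.34e-08).

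Mpst, the mercaptopyruvate sulfurtransferase, which like Cth can give rise to hydrogen sulfide, fell by 0.29 in knockin (adjusted p = 0.00917) and by 0.28 in wild-type mice (adjusted p = 0.0147). Its wild-type call rested on wild-type PBS replicate 3, without which the adjusted p was 0.0627. Kyat1, a transaminase that also cleaves cysteine conjugates, was called higher in knockin mice alone, by 0.43 (adjusted p = 0.0180), against 0.18 (adjusted p = 0.432) in wild-type mice. The difference of the 2 responses was 0.25 with an adjusted p of 1.00, and the knockin call was lost without knockin PBS replicate 2 or 3 or knockin dexamethasone replicate 4 (adjusted p up to 0.0734), and in a fit to the compared groups alone (adjusted p = 0.0756). Of 10 genes of sulfide and sulfur oxidation tested, 2 were called higher and 2 lower in knockin mice, and 1 higher and 2 lower in wild-type mice.

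Around the glutathione genes, Oplah and Lap3 moved in opposite directions. Oplah, 5-oxoprolinase, which returns glutamate from the breakdown of glutathione, had 39.6 ± 2.31 CPM in knockin dexamethasone and 28.3 ± 1.39 CPM in knockin PBS libraries. In the wild-type libraries it had 38.0 ± 2.31 CPM with dexamethasone and 29.8 ± 1.42 CPM with PBS. It rose by 0.48 in knockin (adjusted p = 1.44e-07) and 0.35 in wild-type mice (adjusted p = 1.96e-05). Lap3, an aminopeptidase that can split the cysteinylglycine left from glutathione, fell by 0.38 in knockin (adjusted p = 5.57e-06) and by 0.33 in wild-type mice (adjusted p = 6.89e-05). These were the only calls among 10 tested genes of glutathione synthesis, cycle and breakdown in either genotype. Of 21 peroxidases and transferases, Mgst3 was called higher by 0.17 (adjusted p = 0.0471) and Gstt1 lower by 0.37 (adjusted p = 0.0390) in knockin mice, and none was called in wild-type mice. Leaving out 1 library ended the call of Mgst3 in 9 and that of Gstt1 in 5 of 10 cases, with adjusted p of up to 0.149 and 0.168. Both calls were also lost without the 2 libraries high in choroid plexus transcripts (adjusted p = 0.109 for Mgst3 and 0.0732 for Gstt1), that of Mgst3 with DESeq2 size factors (0.0530) and that of Gstt1 in a fit to the compared groups alone (0.0894).

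Genes of cystine, cysteine and methionine transport were called in both directions at the level of RNA, and transport itself was not measured. Slc7a11, the cystine and glutamate exchanger that brings in cystine, had 47.6, 50.4, 54.9, 41.6 and 52.2 CPM in knockin dexamethasone libraries, against 86.7, 70.4, 83.0, 66.9 and 78.3 CPM in knockin PBS libraries. In wild-type mice it had 62.1, 66.6, 63.7, 49.1 and 65.0 CPM with dexamethasone, against 63.3, 76.9, 87.4, 89.3 and 74.4 CPM with PBS. The knockin groups were apart, whereas wild-type PBS replicate 1 lay among the dexamethasone libraries. Slc7a11 fell by 0.65 ± 0.10 in knockin (SE, adjusted p = 0.000295) and by 0.34 ± 0.10 in wild-type mice (adjusted p = 0.0437). The wild-type call was lost without any 1 of 9 libraries, all but wild-type PBS replicate 1 of the 10 compared, with an adjusted p of up to 0.120. It was also lost under limma-voom (adjusted p = 0.0521), without a filter on low counts (0.0941), in a fit to the compared groups alone (0.0811) and without the 2 libraries high in choroid plexus transcripts (0.126). The difference of the responses was -0.30 ± 0.15 (adjusted p = 1.00).

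Slc7a5, which carries methionine and other large neutral amino acids, rose by 0.48 in knockin (adjusted p = 6.66e-05) and 0.52 in wild-type mice (adjusted p = 2.80e-05). Slc38a2, a sodium-coupled carrier of small neutral amino acids, rose by 0.48 in knockin (adjusted p = 0.00859) and 0.45 in wild-type mice (adjusted p = 0.0145), and its knockin call was lost in a fit to the compared groups alone (adjusted p = 0.0573). Slc1a4, a carrier of serine, the co-substrate of Cbs, fell by 0.31 in knockin (adjusted p = 1.30e-05) and by 0.32 in wild-type mice (adjusted p = 1.01e-05). Slc1a5, a glutamine carrier, was called higher in knockin mice, by 0.70 (adjusted p = 0.0124), and had 0.49 (adjusted p = 0.118) in wild-type mice. Its knockin call was lost without knockin dexamethasone replicate 4 (adjusted p = 0.0668) and in a fit to the compared groups alone (adjusted p = 0.0666). Of 9 transport genes 3 were called higher and 2 lower in knockin mice, and 2 higher and 2 lower in wild-type mice.

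Among 13 genes of the NRF2 and thioredoxin system, 1 was called higher and 1 lower in each genotype. Abcc4, an exporter of conjugates, rose by 0.43 in knockin (adjusted p = 0.00186) and 0.62 in wild-type mice (adjusted p = 3.20e-05). Prdx1, a peroxiredoxin, fell by 0.17 in knockin (adjusted p = 0.00373) and by 0.28 in wild-type mice (adjusted p = 2.33e-05). Of 9 genes of amino acid stress and serine synthesis, Ddit4, an inhibitor of mTOR signalling and a known glucocorticoid target, rose by 0.85 in knockin (adjusted p = 0.000158) and 0.63 in wild-type mice (adjusted p = 0.00251). Psat1, a transaminase of serine synthesis, had small calls of 0.17 in knockin (adjusted p = 0.0220) and 0.16 in wild-type mice (adjusted p = 0.0376). Leaving out 1 library ended them in 4 and 7 of 10 cases, with adjusted p of up to 0.0665 and 0.131. The wild-type call of Psat1 was also lost in a fit to the compared groups alone (0.119) and without the libraries high in liver (0.0781) or choroid plexus transcripts (0.141). Phgdh, the first enzyme of serine synthesis, was called lower in knockin mice by 0.25 (adjusted p = 0.0365), a call that was lost in 8 of 10 such cases (adjusted p up to 0.118) and without a filter on low counts (0.109). In single genotypes only Ado, a thiol dioxygenase, was called of 6 further taurine genes, lower in wild-type mice by 0.14 (adjusted p = 0.0345). That call was lost in 6 of 10 cases (adjusted p up to 0.105) and in a fit to the compared groups alone (0.0798). It was also lost without the 2 libraries high in choroid plexus transcripts (0.0736). Averaged over both genotypes 2 were called lower, Ado and Slc6a6, a taurine transporter. Leaving out 1 library ended these averaged calls in 10 and 13 of 20 cases, with adjusted p of up to 0.0758 and 0.0706. Both were also lost without a filter on low counts, and that of Slc6a6 without the 2 libraries high in choroid plexus transcripts.

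**Figure D4:**
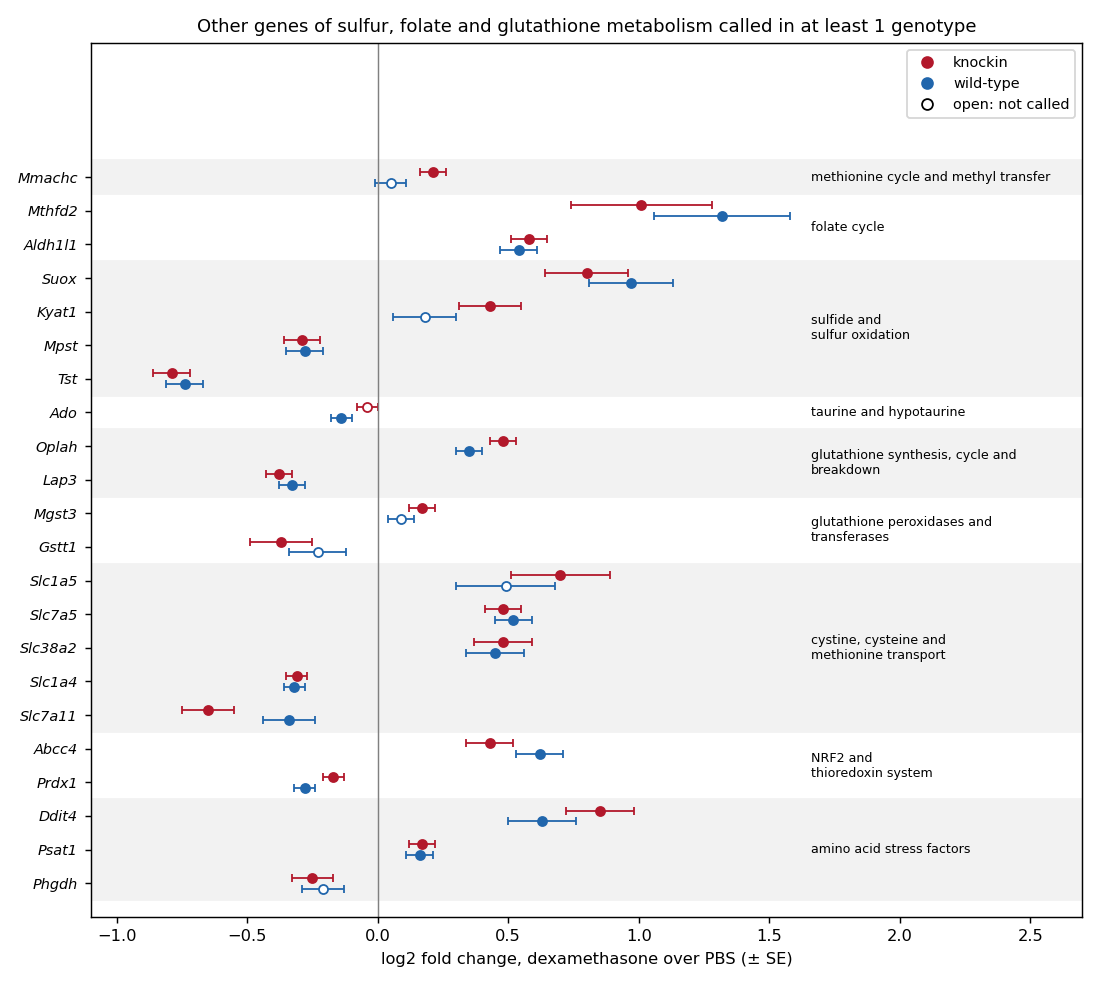
Log2 fold change of dexamethasone over PBS (x axis, ± SE) for the genes of the wider lists that were called in at least 1 genotype, in knockin and wild-type mice, grouped by list, with open symbols for values not called. Mthfd2, Suox and Ddit4 lie farthest to the right, and Tst and Slc7a11 farthest to the left.

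Several of these genes are known from astrocytes, and markers of that cell type are given beside them. The 12 astrocyte markers summed to 9291.0 to 10445.0 CPM in knockin dexamethasone, 8638.5 to 9630.9 CPM in knockin PBS, 9124.0 to 9516.9 CPM in wild-type dexamethasone and 8736.9 to 9340.9 CPM in wild-type PBS libraries. In each genotype 3 of the 12 were called higher and 1 lower, and their median log2 fold change was -0.02. Averaged over both genotypes 3 were called higher and 3 lower. Gjb6, Fgfr3 and Glul rose by 1.40, 0.69 and 0.52, and Aqp4, Sox9 and Slc4a4 fell by 0.41, 0.24 and 0.12. Of 10 oligodendrocyte and 10 microglia markers 4 each were called lower in knockin mice, and 3 and 4 in wild-type mice, where 2 microglia markers were called higher. Of 10 endothelial markers 1 was called higher and 3 lower in knockin mice, and 1 higher and 1 lower in wild-type mice. None of the 10 hippocampal neuron markers was called in either genotype. The part of cell composition in the responses of Cbs and the other members was not tested.

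For each member the 3 genes with the most similar pattern over the 20 libraries were found among 12637 candidates by Pearson's r of log2 CPM. For Mat2a they were Hacd2 (r = 0.992), Cdkn1a (0.988) and Sgk1 (0.986), and for Cbs they were Fzd2 (0.980), Plekhf1 (0.978) and Htra1 (0.977). These values take in the difference between treated and PBS libraries. For Csad the genes were Nt5c3 (0.870), Ctnna1 (0.857) and Zfp469 (0.850), and for Cth they were Aldh6a1 (0.886), Slc30a9 (0.865) and Lin52 (0.864). The members without a call had lower best values, 0.829 for Cdo1 with Tmem35a, 0.799 for Gclm with Abat, 0.786 for Mtr with Ercc6, 0.780 for Gclc with Mrpl50 and 0.768 for Ahcy with Mrto4. For all members the values take in any difference between groups. They are the highest among 12637 candidates over only 20 libraries, and no chance level was computed.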

How the data were processed

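Each library has 1 deposited table of unnormalized read-pair counts by gene, produced by the authors with featureCounts 2.0.6 on GENCODE M34, per the file headers; no strand option and no counting of multi-mapping pairs is given there. The submitters' processing notes name STAR 2.5.1, Subread 1.5.1, DESeq2 1.38.3 and the mm39 build. The labels call libraries biological replicates, and each is read here as 1 mouse; otherwise p-values measure only the spread between these samples. Symbols, from a names table, matched 51884 of 57126 identifiers. The 5242 others held 0.264% to 0.337% of counts and stayed in the tests.

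Counts were analysed in R 4.3.3 with edgeR 4.0.16. The filter filterByExpr (minimum count 10, minimum total 15) left 18648 genes. TMM scaling and a robust quasi-likelihood fit with 1 term per group over all 20 libraries gave 16 residual degrees of freedom. P-values were adjusted over all genes tested, and genes were called under 0.05. The SE is that implied by the fold change and its F statistic. The fit was tested on simulated data. The 40 library pairs within groups were compared for identical libraries, and their counts differed beyond sampling noise (chi-square per gene 2.56 to 12.7). Marker sums use CPM without TMM scaling. Near copies were found with blastn 2.17.0 at 90% identity over 300 bases among GENCODE M21 transcripts, and counting Ahcy and Mat2a with them was chosen after seeing the data. Promoters came from RefSeq (GRCm38.p6), a build other than that of the counts.

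Members and lists were chosen with earlier results of these data known. The rule named all members, Nr3c1, up to 4 called genes per list and comparison by size of fold change, and 3 genes of similar pattern with mean log2 CPM of at least 1. Averaged over both genotypes it also picked Shmt1, Kyat3, Gpx3 and Gstm5, called higher, and Psph, called lower, which are not described above. The averaged calls of Gpx3 and Gstm5 were lost under some alternatives. The astrocyte markers named singly were chosen after their values were seen. Alternatives were DESeq2 1.42.0 (size factors, Wald test), limma-voom (limma 3.58.1), no filter, at least 50 counts in 5 libraries, the compared groups alone, a replicate block, leaving out each library, and leaving out the libraries high in liver or choroid plexus transcripts.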

Additional observations from a re-analysis of the deposited data

Results flagged for a closer look

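Among 36 groups of 5 libraries, for 9 genes in 4 groups, 2 held a library far from the other 4, with a gap of more than 0.71 of the group's range. Chance marks about 1 group in 20. Cbs in knockin dexamethasone replicate 4 was 42.7 CPM, below 50.2 to 52.8 CPM in the other libraries of its group, and still above all PBS libraries. Mtr in knockin PBS replicate 4 was 31.9 CPM, above 23.6 to 25.7 CPM in the rest of its group.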

How the results depend on the processing

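Of 1485 values of the 9 genes under the alternatives, 1483 kept their direction, where called, and their side of the threshold. The exceptions are the averaged Csad response without the 2 libraries high in liver transcripts (0.17, adjusted p = 0.0556) and the wild-type Csad response without wild-type dexamethasone replicate 3 (0.30, adjusted p = 0.0140). No called value reversed, and 96 values that were not called changed sign. Most of the 1485 values were of members not called in the comparison. Keeping that side of the threshold says little about the called ones. Leaving out 1 library, Cbs ranged over 0.96 to 1.03 in knockin and 0.70 to 0.78 in wild-type mice, Mat2a over 0.68 to 0.73 and 0.63 to 0.74, and Cth over 0.61 to 0.84 and 0.20 to 0.46. Of 1783 values of the called genes of the wider lists and Nr3c1, 122 lost their call and 0 reversed. The count of all genes called between knockin and wild-type mice averaged over treatments was 0, and became 1 with the DESeq2 Wald test and 1 without a filter on low counts; leaving out 1 library gave 0 to 1, with 1 without wild-type PBS replicate 3 or knockin dexamethasone replicate 2. Under dexamethasone it became 1 in a fit to the compared groups alone. The cause was not tested. The labels do not say whether replicate numbers pair the samples. Of 30 same-numbered pairs 5 had a correlation over 0.1 (range -0.11 to 0.25, median 0.02, against -0.01 for other numbers). Of 20 libraries 6 correlated best with their own number. With 5 libraries per group these values cannot exclude a shared litter, batch or day. With a replicate block the responses were 0.98 and 0.75 for Cbs, 0.70 and 0.67 for Mat2a, and 0.77 (adjusted p = 0.000879) and 0.32 for Cth in knockin and wild-type mice, and the averaged Csad response was 0.22 (adjusted p = 0.0175). The block changed no call of the 9 genes, and of the calls in single genotypes it ended those of Mgst3 (adjusted p = 0.0586) and Phgdh (0.0557) in knockin and Ado (0.0533) in wild-type mice. Depth limits Cth, with 22 to 188 counts per library, most.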
